A study of Mus musculus with 18 samples.

Results

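The 10 genes described here are the 5 subunits of the transcription factor NF-kB (Nfkb1, Rela, Rel, Relb and Nfkb2), 2 of its inhibitors (Nfkbia and Tnfaip3) and 3 inflammatory genes that it can switch on (Ccl3, Ccl4 and Tnf). They were taken by gene symbol from a table of 29437 genes, and all 10 passed the filter on low counts that left 16325 genes to be tested. Tnf passed it with few reads, between 0 and 73 per library.

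Poly(A) RNA was sequenced from bone marrow cells of mice aged 10 weeks, 3 wild-type (WT) and 3 Helios knockout (KO). Helios, encoded by Ikzf2, is a zinc finger protein that belongs to the Ikaros transcription factors. All populations were lineage-negative, Sca1-positive and Kit-positive. The stem cells, long-term hematopoietic stem cells or LT-HSC, were gated as CD48-negative and CD150-positive, and the progenitors MPP3 and MPP4 as CD48-positive and CD150-negative, with MPP3 Flt3-negative and MPP4 Flt3-positive. MPP3 lean towards the myeloid lineages and MPP4 towards the lymphoid ones. Each of the 6 groups held 3 libraries, numbered 1, 2 and 3, and the numbers of WT and KO libraries are those of different mice. The exons that the KO allele lacks, and the tissues in which Helios was deleted, were not given in the sources used here.

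Total counts per library ran from 21053050 to 45410959. Levels are CPM, counts scaled to a common library size, after TMM scaling, group levels are mean ± SD (n = 3), and levels of different genes are compared only as CPM per kb of median transcript length. Ikzf2 was lower in KO than in WT in the means of all populations (LT-HSC 9.62 against 40.4 CPM, MPP3 20.7 against 48.8 CPM, MPP4 8.30 against 32.8 CPM). The gate genes ran as the labels say for Cd48, which had at most 6.05 CPM in the means of the LT-HSC groups and at least 285 CPM in those of the progenitors, and for Slamf1 (CD150). Flt3 stood at 786 ± 88.9 CPM in MPP3 WT, a population sorted as Flt3-negative, against 90.2 ± 24.0 CPM in LT-HSC WT and 3280 ± 442 CPM in MPP4 WT. Several libraries carried transcripts of other cell types. The LT-HSC WT libraries 1, 2 and 3 held 3.98, 79.2 and 243 CPM of 13 neutrophil markers against at most 11.0 CPM in the LT-HSC KO libraries. The MPP3 libraries WT 1, WT 2 and KO 1 held 3500, 3840 and 2980 CPM of 12 B and plasma cell markers against at most 262 CPM in the other MPP3 libraries.

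NF-kB is a family of dimers of Rel-domain proteins that in resting cells are held in the cytoplasm by IkB proteins. Signals from receptors for TNF, interleukin-1 or microbial products activate IkB kinases, the IkB protein is degraded, and the freed dimers bind kappa B sites in DNA. Among the genes switched on are those of the inhibitors, so the pathway turns itself off, and those of chemokines and cytokines. In blood stem and progenitor cells it is known for responses to infection and for survival.

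The promoters of the members whose levels differed between populations are shown because those differences went both ways, up for Rel, Ccl3 and Tnf and down for Nfkbia. Each is the 250 bases upstream of the RefSeq transcription start (GRCm38.p6), all are on the minus strand and written 5′ to 3′ along the gene, and capitals mark matches to the kappa B consensus on either strand.
Rel, chr11:23770970-23771219: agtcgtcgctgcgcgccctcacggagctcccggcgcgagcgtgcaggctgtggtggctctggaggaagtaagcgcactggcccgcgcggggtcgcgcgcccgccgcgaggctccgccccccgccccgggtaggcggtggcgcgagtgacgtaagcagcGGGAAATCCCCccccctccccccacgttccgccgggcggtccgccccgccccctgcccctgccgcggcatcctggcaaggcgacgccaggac
Nfkbia, chr12:55492648-55492897: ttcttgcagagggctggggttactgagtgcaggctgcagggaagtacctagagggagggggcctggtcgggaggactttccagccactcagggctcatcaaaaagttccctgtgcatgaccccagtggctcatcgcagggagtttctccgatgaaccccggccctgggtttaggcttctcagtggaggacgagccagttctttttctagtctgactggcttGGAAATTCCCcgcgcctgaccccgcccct
Ccl3, chr11:83649379-83649628: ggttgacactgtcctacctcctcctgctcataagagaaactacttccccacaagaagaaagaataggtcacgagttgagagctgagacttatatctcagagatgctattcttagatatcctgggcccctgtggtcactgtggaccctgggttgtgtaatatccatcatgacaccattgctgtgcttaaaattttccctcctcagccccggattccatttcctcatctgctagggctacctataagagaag
Tnf, chr17:35202008-35202257: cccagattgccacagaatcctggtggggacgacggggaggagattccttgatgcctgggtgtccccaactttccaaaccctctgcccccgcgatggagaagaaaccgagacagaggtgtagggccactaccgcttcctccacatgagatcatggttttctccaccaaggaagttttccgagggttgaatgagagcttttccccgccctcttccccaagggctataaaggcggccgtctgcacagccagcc
The consensus was found in the windows of Rel and Nfkbia and not in those of Ccl3 and Tnf, which says only that its letters are not in these windows. In Rel the 3 matches overlap one another, the first being GGGAAATCCC from 92 to 83 bases upstream of the start. In Nfkbia the single match lies on the opposite strand, from 29 to 20 bases upstream. The RefSeq table held 7 of the 10 members, with 10 promoters. A match was found in 6 of these promoters, against 3.9% of all 32851 promoters in the table. They belong to 4 members (Rel, Nfkbia, Nfkb2 and Tnfaip3). Nfkb1, Relb and Ccl4 had no entry in it.

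Per kb of transcript, 3 members stood well above the rest in every group. In LT-HSC WT Nfkbia had 109 CPM per kb, Nfkb1 87.4 and Rela 66.2, followed by Tnfaip3 at 14.2 and Nfkb2 at 9.66. The lowest there were Relb (4.82), Rel (4.36), Ccl4 (3.59), Ccl3 (1.64) and Tnf, which had no read. In MPP4 WT the order began with Nfkb1 at 85.3, Nfkbia at 76.6 and Rela at 63.6 CPM per kb, and Ccl3 and Ccl4 came next, at 27.3 and 21.8 CPM per kb. The chemokines thus moved from near the bottom of the order in stem cells to a place above Rel (9.17), Relb (8.26) and Nfkb2 (6.66) in MPP4.

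**Figure D1:**
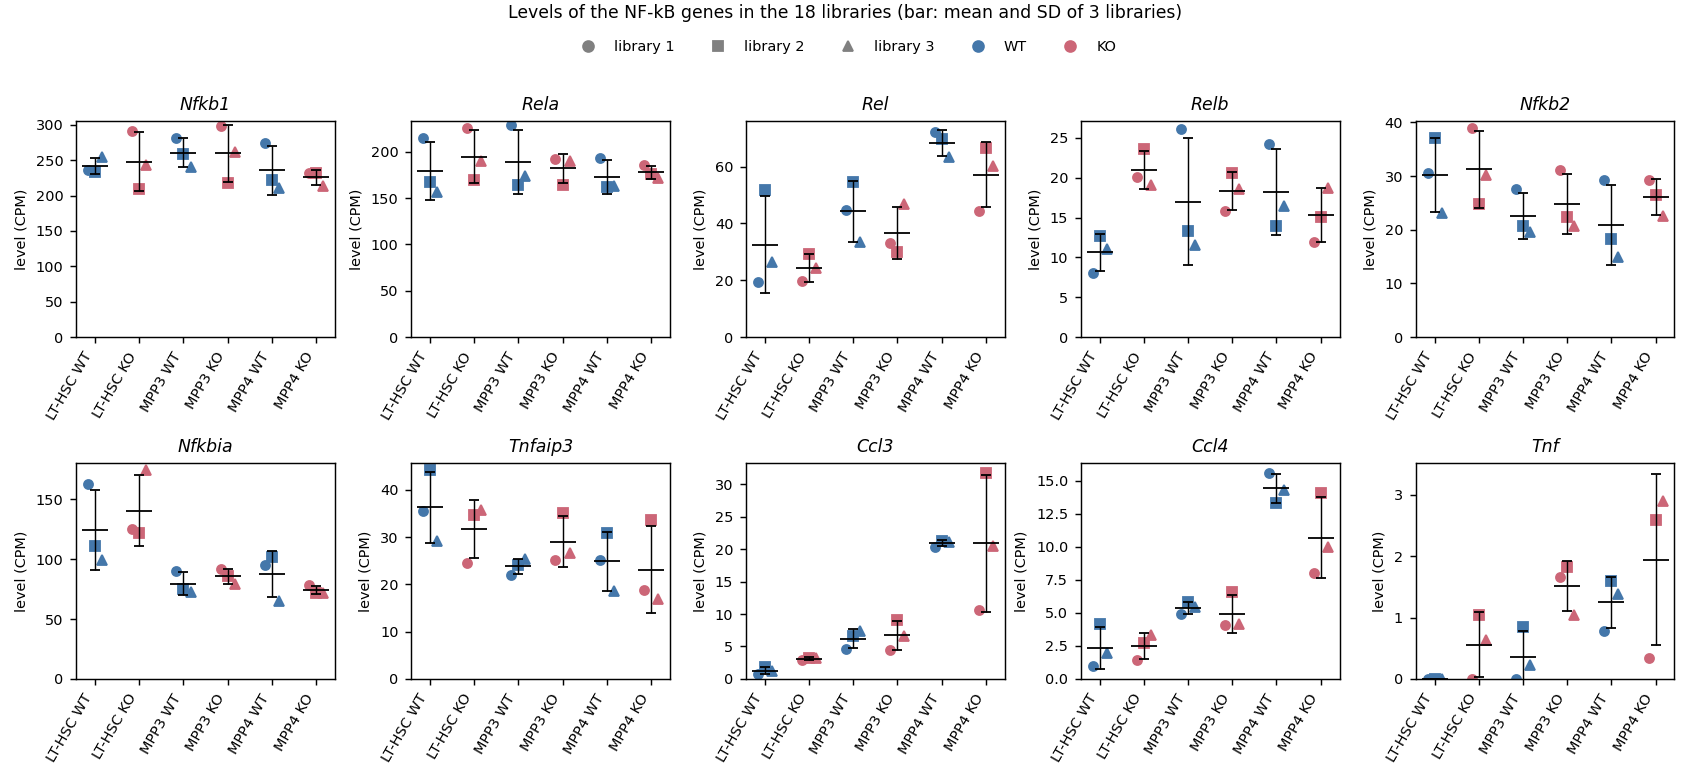
Level of each of the 10 genes in every library (y axis, CPM after TMM scaling, from 0; x axis, population and genotype; symbols, library number; bars, mean and SD of 3 libraries). Nfkb1 and Rela stay level across the 6 groups, Rel, Ccl3 and Ccl4 are highest in MPP4, and Nfkbia is highest in LT-HSC.

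Nfkb1 and Rela, which encode the classical heterodimer, kept nearly the same level in the stem cells and both progenitors. Nfkb1 (chromosome 3, 135584655 to 135691547, mm10) had 237, 234 and 254 CPM in LT-HSC WT, 282, 259 and 240 CPM in MPP3 WT and 275, 222 and 210 CPM in MPP4 WT. The 3 populations overlapped, and so did they in KO, where Nfkb1 ran from 209 to 299 CPM over all 9 libraries. Its log2 differences between populations lay between -0.20 and 0.11 in both genotypes, with standard errors of 0.13, and none passed edgeR's quasi-likelihood test. Rela (chromosome 19, 5637483 to 5648130) had 215, 167 and 157 CPM in LT-HSC WT, 229, 165 and 174 CPM in MPP3 WT and 194, 162 and 163 CPM in MPP4 WT. Library 1 was the highest of the 3 in each of these groups, and the populations overlapped. Its log2 differences between populations lay between -0.13 and 0.07, with standard errors of 0.15. The same WT libraries numbered 1 also had the highest sums of 22 immediate early transcripts in their groups, with 1400 CPM against 624 and 558 CPM in LT-HSC, 753 against 497 and 490 CPM in MPP3 and 948 against 613 and 562 CPM in MPP4. In KO, library 1 was also the highest of its group for both. Rela had 226, 192 and 186 CPM there in LT-HSC, MPP3 and MPP4, against at most 190, 190 and 177 CPM. The immediate early transcripts summed to 1060, 637 and 705 CPM there, against at most 833, 586 and 680 CPM. Whether handling before lysis had a part in these levels was not tested.

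Rel, which encodes c-Rel, the subunit best known from lymphocytes, rose from stem cells to MPP4. The gene lies on chromosome 11 from 23736847 to 23770970. It had 19.3, 51.9 and 26.5 CPM in LT-HSC WT, 44.8, 54.5 and 33.4 CPM in MPP3 WT and 72.3, 69.8 and 63.4 CPM in MPP4 WT. All MPP4 WT libraries were above all others, while LT-HSC WT 2 lay within the range of MPP3. MPP4 exceeded LT-HSC by 2.11-fold in WT (log2 1.08 ± 0.30, edgeR adjusted p = 0.0133), a call lost without LT-HSC WT 1 (log2 0.83, edgeR adjusted p = 0.0503) or WT 3 (log2 0.95, edgeR adjusted p = 0.0558) and when only the 6 libraries compared were fitted (log2 1.05, edgeR adjusted p = 0.0537). Without LT-HSC WT 2 and 3, which carried neutrophil transcripts, the log2 difference was 1.81 (edgeR adjusted p = 0.0023), but this leaves 1 LT-HSC WT library, which is assumed to vary like the other groups. The same holds for each value given without both libraries. The KO libraries showed the same order, with 19.6, 29.4 and 24.3 CPM in LT-HSC, 33.0, 29.8 and 47.0 CPM in MPP3 and 44.5, 66.7 and 60.3 CPM in MPP4. MPP4 and LT-HSC did not overlap there, and MPP4 KO 1 fell within the range of MPP3. MPP4 exceeded LT-HSC in KO by 2.34-fold (log2 1.23 ± 0.30, edgeR adjusted p = 0.00743), and this call stayed with any 1 library left out. MPP3 lay between the other populations without passing against either, at log2 0.44 ± 0.30 in WT and 0.58 ± 0.30 in KO against LT-HSC (edgeR adjusted p = 0.336 and 0.218). Without LT-HSC WT 2 the WT difference passed, at 0.95 (edgeR adjusted p = 0.0267), and without LT-HSC WT 2 and 3 it was 1.18. It was 0.04 without the 3 MPP3 libraries with plasma cell transcripts, which leaves 1 MPP3 WT library.

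Relb and Nfkb2 encode the subunits of the alternative pathway. Relb (chromosome 7, 19606217 to 19629438) had 8.08, 12.7 and 11.1 CPM in LT-HSC WT, 26.2, 13.4 and 11.5 CPM in MPP3 WT and 24.2, 13.9 and 16.4 CPM in MPP4 WT. In WT the LT-HSC libraries lay below all MPP4 libraries, and library 1 was the highest in both progenitors. The log2 difference of MPP4 from LT-HSC was 0.78 ± 0.30 in WT (edgeR adjusted p = 0.0622) and -0.45 ± 0.29 in KO (edgeR adjusted p = 0.323), so neither passed edgeR's test. By limma voom the WT difference passed, at 0.73 (adjusted p = 0.0427). In KO the order was reversed. All MPP4 libraries (12.0, 15.1 and 18.8 CPM) lay below all LT-HSC libraries (20.1, 23.6 and 19.0 CPM). Nfkb2 (chromosome 19, 46304737 to 46312090) had 30.5, 37.0 and 23.1 CPM in LT-HSC WT, 27.6, 20.6 and 19.6 CPM in MPP3 WT and 29.3, 18.3 and 15.0 CPM in MPP4 WT. These groups overlapped, and its log2 difference of -0.53 ± 0.26 between MPP4 and LT-HSC in WT did not pass (edgeR adjusted p = 0.141). With the mouse as a replicate block it passed as lower, at -0.57 (edgeR adjusted p = 0.0294). Nfkb2 overlaps Psd and the noncoding gene AC114539.1 on the opposite strand, and Nfkb1 overlaps the uncharacterised gene Gm43430 on its own strand. Reads of Nfkb2 and its neighbours may have been shared, since it was not stated whether counting used strand. For Nfkb1 and Gm43430 strand could not separate the reads.

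Nfkbia, which encodes the IkB alpha protein that NF-kB itself induces, was highest in stem cells. It lies on chromosome 12 from 55489410 to 55492647. In WT it had 163, 111 and 99.5 CPM in LT-HSC, 90.4, 75.3 and 72.5 CPM in MPP3 and 95.2, 101 and 65.4 CPM in MPP4. All LT-HSC libraries exceeded all MPP3 libraries, whereas MPP4 WT 2 reached above LT-HSC WT 3. Library 1 of LT-HSC WT, the highest for Nfkbia, was also the highest for the immediate early transcripts (1400 CPM), and the part of these in the result was not tested. MPP3 was 1.56-fold lower than LT-HSC in WT (log2 -0.64 ± 0.19, edgeR adjusted p = 0.0292). This call was lost without LT-HSC WT 1 (log2 -0.39, edgeR adjusted p = 0.178), MPP3 WT 2 (edgeR adjusted p = 0.0886) or MPP3 WT 3 (edgeR adjusted p = 0.118), with only the compared libraries fitted (edgeR adjusted p = 0.0509), and without MPP3 WT 1, WT 2 and KO 1, which carried plasma cell transcripts (log2 -0.77, edgeR adjusted p = 0.158). That leaves 1 MPP3 WT library, assumed to vary like the other groups, and a larger difference than with all libraries. MPP4 was lower by a log2 difference of -0.51 ± 0.19 that did not pass (edgeR adjusted p = 0.0593) and passed with the mouse as a replicate block (log2 -0.50, edgeR adjusted p = 0.0235), by DESeq2 (adjusted p = 0.0213) and by limma voom (adjusted p = 0.0311). It shrank to -0.25 without LT-HSC WT 1 and to -0.33 without MPP4 WT 3 (edgeR adjusted p = 0.362 and 0.245). Without LT-HSC WT 3 it passed, at -0.64 (edgeR adjusted p = 0.0309).

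In the KO mice Nfkbia stood at 125, 122 and 175 CPM in LT-HSC, 91.9, 86.0 and 79.2 CPM in MPP3 and 78.0, 72.2 and 71.9 CPM in MPP4. Here the 3 populations did not overlap at all. MPP3 was 1.64-fold lower than LT-HSC (log2 -0.71 ± 0.19, edgeR adjusted p = 0.0207) and MPP4 was 1.90-fold lower (log2 -0.92 ± 0.19, edgeR adjusted p = 0.00227). The second of these calls stayed with any 1 library left out. The first was lost without LT-HSC KO 3 (edgeR adjusted p = 0.104), MPP3 KO 2 (0.052) or MPP3 KO 3 (0.0849), and without the 3 MPP3 libraries that carried plasma cell transcripts, where the difference was larger (log2 -0.77, edgeR adjusted p = 0.0683). In bulk libraries such as these, fewer cells of a type with much of a transcript and less of it per cell cannot be told apart.

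Tnfaip3 encodes A20, a ubiquitin-editing enzyme that shuts off signalling from TNF and Toll-like receptors. The gene lies on chromosome 10 from 19000910 to 19015657. Its WT levels were 35.5, 44.1 and 29.2 CPM in LT-HSC, 22.1, 24.0 and 25.3 CPM in MPP3 and 25.1, 31.0 and 18.5 CPM in MPP4. LT-HSC lay above MPP3 in every library and overlapped with MPP4. The log2 differences of MPP3 and MPP4 from LT-HSC in WT, -0.61 ± 0.26 and -0.54 ± 0.26, did not pass (edgeR adjusted p = 0.12 and 0.131). With the mouse as a replicate block both passed as lower (log2 -0.58 and -0.55, edgeR adjusted p = 0.049 and 0.0455). In KO the 9 libraries ran from 17.0 to 35.7 CPM, the populations overlapped, and no difference passed, MPP4 standing at -0.45 ± 0.26 from LT-HSC (edgeR adjusted p = 0.253). Without MPP4 KO 2 that difference was -0.82 and passed (edgeR adjusted p = 0.0276).

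Ccl3 showed the largest difference among the 10 genes that was measured with reads in every library. It encodes the chemokine MIP-1 alpha, which draws leukocytes to sites of inflammation, and lies on chromosome 11 from 83647844 to 83649355. WT LT-HSC had 0.70, 1.79 and 1.29 CPM, WT MPP3 4.57, 6.55 and 7.45 CPM and WT MPP4 20.4, 21.2 and 21.1 CPM. The 3 populations were fully separated, in the order LT-HSC, MPP3, MPP4. MPP3 exceeded LT-HSC by 4.90-fold (log2 2.29 ± 0.40, edgeR adjusted p = 0.000934) and MPP4 did so by 16.6-fold (log2 4.05 ± 0.42, edgeR adjusted p = 2.51e-06). Both calls stayed with any 1 library left out. With LT-HSC WT 1 as the only WT stem cell library, the log2 differences were 3.11 and 4.87 (edgeR adjusted p = 0.00685 and 0.000208). MPP4 exceeded MPP3 by 3.37-fold (log2 1.75 ± 0.38, edgeR adjusted p = 0.00981). That call was lost without MPP3 WT 1 (log2 1.58, edgeR adjusted p = 0.0635) and without the 3 MPP3 libraries that carried plasma cell transcripts, which leaves 1 MPP3 WT library (log2 1.49, edgeR adjusted p = 0.397).

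In KO mice Ccl3 stood at 2.90, 3.30 and 3.25 CPM in LT-HSC, 4.46, 9.02 and 6.66 CPM in MPP3 and 10.6, 31.7 and 20.4 CPM in MPP4. The populations were again separated, but the MPP4 libraries spread over a range that the WT libraries did not show. MPP4 exceeded LT-HSC by 6.63-fold (log2 2.73 ± 0.39, edgeR adjusted p = 7.93e-05), which stayed with any 1 library left out, and MPP3 by 3.11-fold (log2 1.64 ± 0.38, edgeR adjusted p = 0.0141). The call against MPP3 was lost without MPP3 KO 1 (edgeR adjusted p = 0.0789), MPP3 KO 3 (0.0602) or MPP4 KO 2 (log2 1.21, edgeR adjusted p = 0.0939), with only the compared libraries fitted (edgeR adjusted p = 0.0709) and without the 3 MPP3 libraries with plasma cell transcripts (log2 1.41, edgeR adjusted p = 0.11). MPP3 against LT-HSC was at log2 1.09 ± 0.38 and did not pass (edgeR adjusted p = 0.0664), while with the mouse as a replicate block it passed at 1.01 (edgeR adjusted p = 0.0281).

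Ccl4, which encodes the related chemokine MIP-1 beta, lies 13229 bases from Ccl3 on chromosome 11 (83662584 to 83664683). It had 1.01, 4.13 and 1.97 CPM in LT-HSC WT, 4.92, 5.83 and 5.46 CPM in MPP3 WT and 15.6, 13.4 and 14.3 CPM in MPP4 WT. The populations were separated in WT in the same order as for Ccl3, with LT-HSC WT 2 the closest to MPP3. MPP4 exceeded LT-HSC by 6.09-fold (log2 2.61 ± 0.44, edgeR adjusted p = 0.000317). Without LT-HSC WT 2 the log2 difference was 3.25 (edgeR adjusted p = 7.55e-05), and with LT-HSC WT 1 alone in its group it was 3.80 (edgeR adjusted p = 0.000441). MPP3 against LT-HSC, at 1.19 ± 0.42, and MPP4 against MPP3, at 1.41 ± 0.42, did not pass (edgeR adjusted p = 0.0622 and 0.0684). Both passed with the mouse as a replicate block (log2 1.31 and 1.45, edgeR adjusted p = 0.0285 and 0.0398). Without LT-HSC WT 2, MPP3 against LT-HSC also passed, at log2 1.84 (edgeR adjusted p = 0.00933). In KO, LT-HSC had 1.45, 2.69 and 3.34 CPM, MPP3 4.08, 6.58 and 4.15 CPM and MPP4 8.04, 14.1 and 9.97 CPM. The KO populations did not overlap either, and MPP4 exceeded LT-HSC by 4.29-fold (log2 2.10 ± 0.43, edgeR adjusted p = 0.00198).

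Tnf encodes the cytokine tumour necrosis factor, an activator and a target of NF-kB, and lies on chromosome 17 from 35199381 to 35202007. No read was counted in the 3 LT-HSC WT libraries. The MPP3 WT libraries had 0, 20 and 6 reads (0, 0.84 and 0.22 CPM) and the MPP4 WT libraries 21, 48 and 38 reads (0.78, 1.59 and 1.38 CPM). With the LT-HSC WT group set at a floor of 3 reads, the ratio of summed CPM to it was 10.9 in MPP3 and 40.6 in MPP4. These ratios leave out the spread of the progenitor libraries. Both differences passed in the fit to all 18 libraries (edgeR adjusted p = 0.0391 and 0.00746). With only the compared libraries fitted, Tnf did not pass the filter on low counts for MPP3 against LT-HSC, so it was not tested there. The MPP3 call was lost without any 1 of the LT-HSC WT libraries (edgeR adjusted p = 0.0866, 0.0868 and 0.103), without MPP3 WT 2 or WT 3 (0.135 and 0.0658) with the mouse as a replicate block (0.0555), by limma voom (0.234), with LT-HSC WT 1 alone in its group (0.259) and without the 3 MPP3 libraries with plasma cell transcripts (0.13). The MPP4 call was lost with LT-HSC WT 1 alone in its group (edgeR adjusted p = 0.118). In KO the reads were 0, 29 and 14 in LT-HSC, 48, 48 and 28 in MPP3 and 9, 56 and 73 in MPP4. Over LT-HSC, the summed CPM in KO was 2.75 times as high in MPP3 and 3.41 times in MPP4, and MPP4 had 1.24 times that of MPP3, none of which passed edgeR's test.

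**Figure D2:**
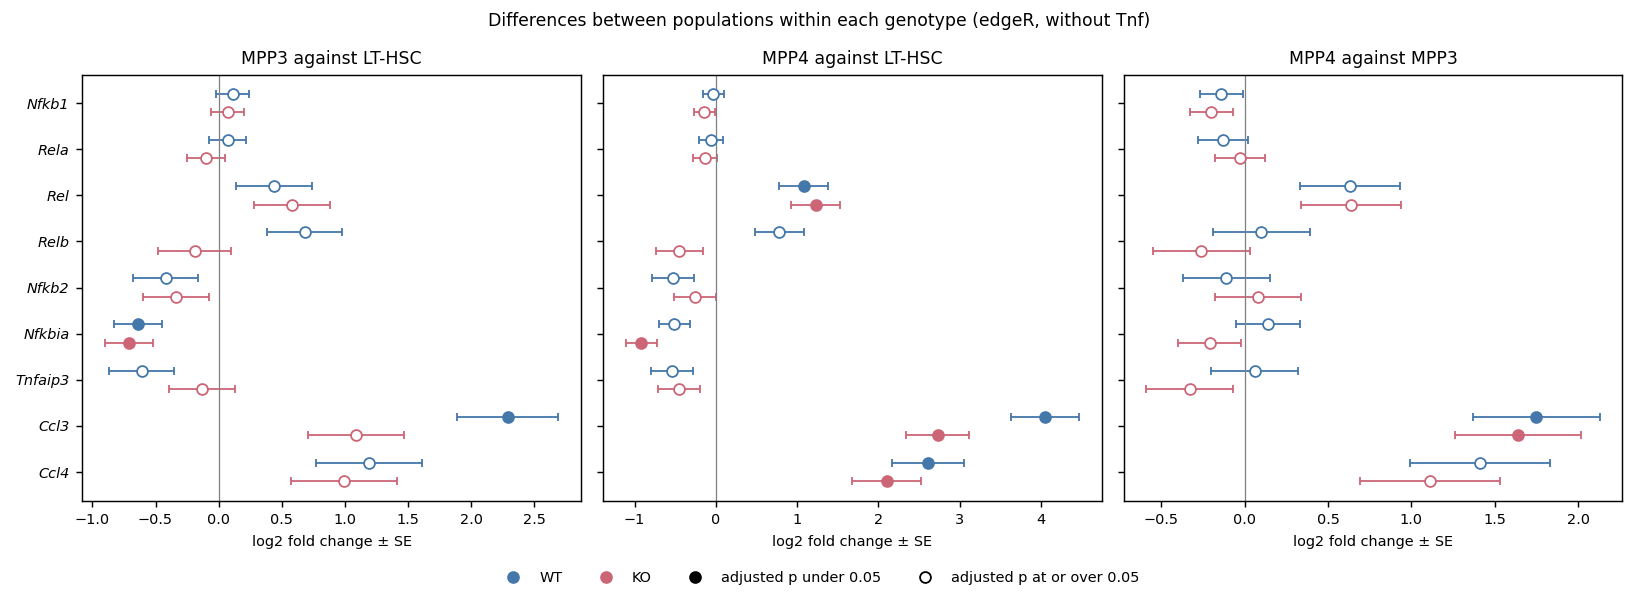
Log2 fold change ± SE (x axis) of each gene but Tnf between populations, in WT (blue) and KO (red), by edgeR's test; filled points have an adjusted p under 0.05. Ccl3 stands furthest to the right in each panel and in both genotypes, from 1.09 to 4.05, and Nfkbia furthest to the left in MPP3 against LT-HSC in both genotypes.

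By count, 2 members rose and 1 fell in MPP3 against LT-HSC in WT, where 9.68% of the 16325 tested genes rose and 7.66% fell. In MPP4 against LT-HSC in WT 4 rose (Rel, Ccl3, Ccl4 and Tnf) and none fell, against 14.1% and 13.1% of all genes. In MPP4 against MPP3 in WT Ccl3 rose, against 2.19% of all genes higher and 2.62% lower. In KO 1 member fell in MPP3 against LT-HSC (background 6.85% higher, 6.82% lower). In KO MPP4 against LT-HSC 3 rose and 1 fell (9.57% and 10.5%), and in KO MPP4 against MPP3 1 rose (2.76% and 2.68%). The 2 genotypes have no library in common, whereas the comparisons within a genotype share their LT-HSC, MPP3 or MPP4 libraries. With the mouse as a replicate block, 4, 7 and 2 members passed in the 3 WT comparisons in the order given, where 23.3%, 32.4% and 6.31% of all genes did, and 2 passed in KO MPP3 against LT-HSC, where 18.9% did. The median log2 difference of the 10 members was 0.37 in WT MPP4 against LT-HSC, with 5 above 0 and 5 below, beside -0.01 over all tested genes.

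Summed levels of markers of other cell types are given beside these population differences, and the part of any of them in the rise of Ccl3, Ccl4 and Tnf was not tested. For the counts of markers below, 14.1% of all tested genes rose and 13.1% fell in WT MPP4 against LT-HSC. In KO the shares were 9.57% and 10.5%. The 12 B and plasma cell markers summed to 50.6 to 72.8 CPM in LT-HSC WT and 1090 to 1500 CPM in MPP4 WT, and in KO to 60.1 to 67.5 and 778 to 1280 CPM. Of the 11 tested, 4 rose in WT MPP4 against LT-HSC (Cd79b, Ighm, Mzb1 and Sdc1) and 2 in KO (Ighm and Sdc1), while Ms4a1, which encodes CD20, was at 0 in MPP4 of both genotypes. The 18 macrophage and dendritic cell markers summed to 28.2 to 185 CPM in LT-HSC WT, 133 to 311 CPM in MPP3 WT and 161 to 267 CPM in MPP4 WT, so that LT-HSC and MPP4 overlapped. In WT MPP4 against LT-HSC 4 of them rose (Csf1r, Cd68, Itgax and Siglech) and 1 fell (Clec9a), with 6 above 0, 12 below and a median of -0.26. Siglech was at 0 in LT-HSC WT and Clec9a in MPP3 WT. The 11 mast cell and basophil markers were at no more than 8.91 CPM in the LT-HSC libraries, at 116 to 250 CPM in the MPP3 libraries and at no more than 16.9 CPM in the MPP4 libraries. In WT MPP4 against LT-HSC the basophil proteases Mcpt8 and Prss34 rose, and Fcer1a and Il4 fell. Mcpt8, Prss34, Ms4a2, Cma1, Mcpt4, Tpsb2 and Cd200r3 were at 0 in LT-HSC WT, and Fcer1a, Ms4a2, Cma1, Mcpt4 and Tpsb2 in MPP4 WT. The 13 T and NK cell markers summed to 9.77 to 23.2 CPM in LT-HSC WT and 16.9 to 23.8 CPM in MPP4 WT, which overlapped. Of 7 tested, Trbc2 and Klrd1 rose and Klrb1c fell in MPP4 in both genotypes, while Cd3e, Cd3d, Cd3g, Cd8a, Ncr1 and Gzmb were at 0 in both LT-HSC WT and MPP4 WT. The 10 stromal and endothelial markers summed to 61.9 to 72.4 CPM in LT-HSC WT and 110 to 181 CPM in MPP4 WT, where of 6 tested Pdgfrb rose, Col1a2 and Kdr fell, and Col3a1, Pdgfra and Dcn were at 0.

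The loss of Helios was compared with WT in each population, and none of the 10 genes passed in any of them. In LT-HSC 0.0613% of all genes passed, in MPP3 0.00613% and in MPP4 0.0123%. At an unadjusted p under 0.05 edgeR gave 3 of the 10 in LT-HSC (Ccl3, Relb and Tnf) and none in MPP3 or MPP4, where 11.2%, 4.59% and 4.0% of all tested genes were under that value in LT-HSC, MPP3 and MPP4. DESeq2 gave 1 in LT-HSC (Tnf, DESeq2 adjusted p = 0.024), where it called 1.34% of all genes, and none in the progenitors. By limma voom 0 passed in each population. In the authors' deposited table none of the 10 passed in any population, while 202, 34 and 20 genes of the whole table did in LT-HSC, MPP3 and MPP4. For Tnf in LT-HSC that table gave a log2 difference of 0.53 and no adjusted p.

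Ccl3 in LT-HSC had 0.70, 1.79 and 1.29 CPM in WT and 2.90, 3.30 and 3.25 CPM in KO. Every KO library exceeded every WT library, and the KO libraries lay close together. The log2 difference was 1.32 ± 0.39 (edgeR adjusted p = 0.258), between 1.05 and 1.63 with any 1 library left out, and 2.14 without WT 2 and 3 (edgeR adjusted p = 0.149), which leaves 1 WT library. Relb in LT-HSC had 8.08, 12.7 and 11.1 CPM in WT and 20.1, 23.6 and 19.0 CPM in KO. Again the groups did not overlap, with a log2 difference of 0.98 ± 0.30 (edgeR adjusted p = 0.258). In the authors' deposited table Relb stood at log2 0.85 with an adjusted p of 0.0766, and Ccl3 at log2 1.01 with an adjusted p of 0.0807. These 2 were the members whose KO libraries all lay above WT in LT-HSC, as did those of 9.15% of all tested genes, and no member lay wholly below, as did 6.14%. The neutrophil markers went the other way, with 3.98, 79.2 and 243 CPM in WT against 4.56, 11.0 and 6.09 CPM in KO, and the 18 macrophage and dendritic cell markers overlapped, at 28.2, 59.7 and 185 CPM in WT and 36.0, 68.9 and 56.6 CPM in KO. Siglech was at 0 in both groups. Itgax, a dendritic cell integrin, was the 1 marker of that list that passed as lower in KO, with no read there and 0.947 ± 0.533 CPM in WT (edgeR adjusted p = 0.0221). The 10 stromal and endothelial markers lay wholly higher in KO, at 72.4, 61.9 and 65.2 CPM in WT and 78.8, 102 and 95.7 CPM in KO. Of 6 tested, 4 were above 0 and 2 below. None passed edgeR's test, and DESeq2 called Pdgfrb. Sums of the B and plasma cell, mast cell and basophil, and T and NK cell markers overlapped. The part of any of these in the levels of Ccl3 and Relb was not tested.

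Tnf in LT-HSC had no read in WT and 0, 29 and 14 reads in KO. With the WT group set at the floor of 3 reads, the ratio of summed CPM was 17.7, and the difference did not pass (edgeR adjusted p = 0.256). KO 1 had none, so the groups overlapped at 0. With only the LT-HSC libraries fitted, Tnf did not pass the filter on low counts and was not tested. In MPP3 all KO libraries (48, 48 and 28 reads, or 1.66, 1.83 and 1.05 CPM) exceeded all WT libraries (0, 20 and 6 reads), a ratio of summed CPM of 4.48 (edgeR adjusted p = 1). There the edgeR log2 difference of Tnf was 2.09 ± 1.33, and lay between 1.51 and 3.73 with any 1 library left out. Tnf was the 1 member without overlap in MPP3, where 5.01% of all genes had every KO library above WT and 5.62% below. In MPP4 the ratio was 1.49, with 9, 56 and 73 reads in KO and 21, 48 and 38 in WT, which overlapped. No member was separated by genotype in MPP4, against 3.96% of all genes above and 4.02% below. None of these differences in Tnf passed edgeR's test, and at counts this low the lack of a call does not show equal levels.

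The other subunits and the inhibitors overlapped between KO and WT in every population, and none passed. Nfkb1 differed by log2 0.04 ± 0.13 in LT-HSC, -0.00 ± 0.13 in MPP3 and -0.06 ± 0.13 in MPP4, and Rela by 0.12 ± 0.15, -0.05 ± 0.15 and 0.04 ± 0.15. The 95% intervals of these 6 differences lay between -0.34 and 0.40. Rel was lower in the mean of KO in all populations, at log2 -0.41 ± 0.30, -0.27 ± 0.30 and -0.26 ± 0.29, and overlapped with WT in each (edgeR adjusted p = 0.662, 1 and 1). Nfkb2 had 38.9, 24.8 and 30.2 CPM in LT-HSC KO, 31.2, 22.4 and 20.7 CPM in MPP3 KO and 29.3, 26.5 and 22.5 CPM in MPP4 KO, within or overlapping the WT ranges. Its log2 differences from WT were 0.05 ± 0.26, 0.13 ± 0.26 and 0.32 ± 0.26 in that order. Nfkbia stood at log2 0.18 ± 0.19, 0.11 ± 0.19 and -0.24 ± 0.19 in the order LT-HSC, MPP3 and MPP4, and Tnfaip3 at -0.19 ± 0.26, 0.29 ± 0.26 and -0.10 ± 0.26. The 95% interval ran from -0.99 to 0.17 for Rel in LT-HSC. It ran from -0.18 to 0.83 for Nfkb2 in MPP4 and from -0.22 to 0.79 for Tnfaip3 in MPP3. The lack of a call thus does not show equal levels. Relb in the progenitors was at 0.11 ± 0.29 and -0.25 ± 0.29, Ccl3 at 0.12 ± 0.37 and -0.00 ± 0.36, and Ccl4 over the 3 populations at 0.07 ± 0.42, -0.13 ± 0.41 and -0.43 ± 0.41.

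**Figure D3:**
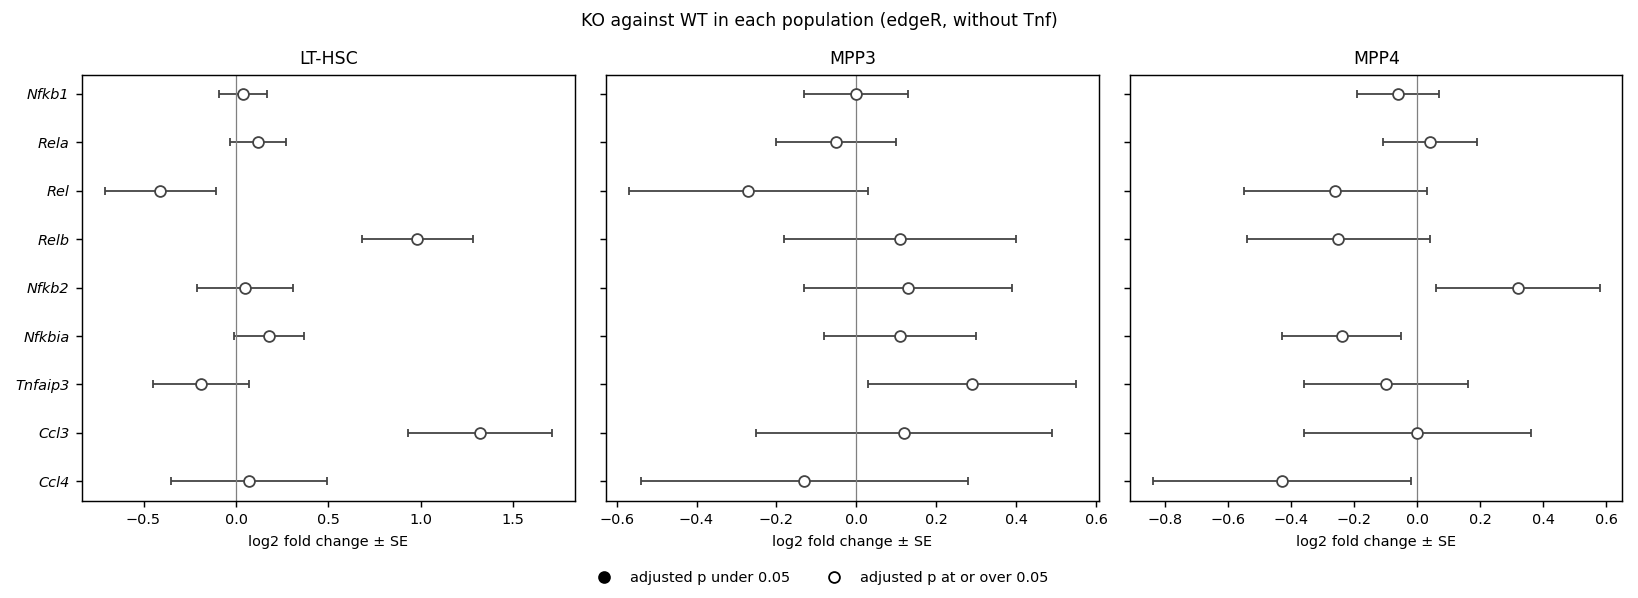
Log2 fold change ± SE (x axis) of KO against WT for each gene but Tnf in the 3 populations, by edgeR's test; open points have an adjusted p of 0.05 or more. Relb and Ccl3 stand apart in LT-HSC, at 0.98 and 1.32, and near 0 in MPP3 and MPP4.

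The difference in the KO effect between populations was tested for each member, and none passed, as was so for 0.0% of all genes in MPP3 against LT-HSC, 0.0% in MPP4 against LT-HSC and 0.0% in MPP4 against MPP3. The KO effect on Ccl3 was smaller in MPP4 than in LT-HSC by log2 -1.32 ± 0.53 (edgeR adjusted p = 0.71) and smaller in MPP3 by -1.20 ± 0.54 (edgeR adjusted p = 1). For Relb the differences were -1.23 ± 0.42 in MPP4 (edgeR adjusted p = 0.653) and -0.87 ± 0.42 in MPP3 (edgeR adjusted p = 1). At an unadjusted p under 0.05 edgeR gave 2 of the 10 in MPP3 against LT-HSC (Ccl3 and Tnf) and 3 in MPP4 against LT-HSC (Ccl3, Relb and Tnf). It gave 0 in MPP4 against MPP3. The shares of all tested genes were 3.69%, 6.65% and 3.23% in that order. For Tnf both differences rest on a LT-HSC WT group without a read. These differences share the LT-HSC or the MPP libraries and are not independent of one another.

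The rest of the pathway is given by lists of receptors, adaptors, kinases, IkB proteins, brakes and targets. The kinase list also holds Ikbkg, Tab1, Tab2 and Tab3, which encode partners of the kinases. In WT MPP4 against LT-HSC 2 of 11 tested receptors rose and 2 fell, beside 14.1% of all tested genes higher and 13.1% lower, and in KO 3 rose and 2 fell, beside 9.57% and 10.5%. Il1r1, the signalling receptor of interleukin-1, rose from 20.7 ± 4.18 to 278 ± 6.13 CPM (log2 3.75 ± 0.19, edgeR adjusted p = 1.07e-09), and Cd27, a co-stimulatory receptor of the TNF receptor family, rose by log2 1.08 ± 0.08. Il1rap, the accessory chain that interleukin-1 signalling needs, fell by 0.62 on the log2 scale (edgeR adjusted p = 0.0158) and Tlr4, the receptor of bacterial lipopolysaccharide, fell by 0.96 (edgeR adjusted p = 0.0091). In KO the same 4 genes passed in the same directions in that comparison, joined by Tnfrsf13c, the BAFF receptor of B cells, at log2 1.33 ± 0.31. Against MPP3, MPP4 WT was higher in Il1r1 (log2 1.54), Tnfrsf13c (1.22) and Cd27 (0.37), beside 2.19% of all tested genes. In WT MPP3 against LT-HSC Il1r1 and Cd27 rose and 4 receptors fell, Tlr4 by 0.85 and Il1rap by 0.78 on the log2 scale among them. Of all tested genes 9.68% rose there and 7.66% fell.

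Of 16 adaptors 2 rose and 1 fell in WT MPP4 against LT-HSC, shares not above the 14.1% and 13.1% of all genes. Among those that rose was Birc3, the ubiquitin ligase cIAP2 (log2 0.41 ± 0.14, edgeR adjusted p = 0.0365). Traf1, an adaptor of TNF receptors and itself an NF-kB target, fell from 27.9 ± 4.78 to 4.48 ± 0.314 CPM (log2 -2.64 ± 0.26, edgeR adjusted p = 1.37e-06). Traf1 also fell in MPP3 (log2 -2.70 ± 0.26 in WT) and in KO cells (-2.12 ± 0.25 in MPP3 and -2.33 ± 0.26 in MPP4). In KO MPP4 against LT-HSC 4 adaptors rose, Birc3, Malt1 and Tifa among them (log2 0.42 each for Malt1 and Tifa), and Traf1 fell. Of all tested genes 9.57% rose in that comparison and 10.5% fell. None of the 10 genes of the kinase list passed edgeR's test in the WT comparisons. At an unadjusted p under 0.05 edgeR gave 2 of them in MPP4 against LT-HSC, beside 38.7% of all genes, and 0 elsewhere, and there DESeq2 called 1 and limma voom 2 (Tab3, and by limma also Tab2, adaptors of the kinase TAK1). In KO 1 rose in MPP4 against LT-HSC, Map3k14, the kinase NIK of the alternative pathway (log2 0.72 ± 0.24, edgeR adjusted p = 0.043). None of the 5 other IkB proteins passed between populations in either genotype by edgeR, DESeq2 or limma voom, and at an unadjusted p under 0.05 by edgeR at most 1 did. Nfkbie, which encodes IkB epsilon, stood at log2 0.25 ± 0.20 in WT and 0.43 ± 0.20 in KO for MPP4 against LT-HSC.

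Of 10 other brakes on the pathway 3 fell and none rose in WT MPP4 against LT-HSC, beside 13.1% of all genes lower and 14.1% higher. Irak3, which blocks signalling from interleukin-1 and Toll-like receptors, fell stepwise, with 173 ± 25.7 CPM in LT-HSC, 70.3 ± 8.03 CPM in MPP3 and 31.5 ± 3.11 CPM in MPP4 (log2 -2.46 ± 0.17 for MPP4, edgeR adjusted p = 2.74e-08). In KO it stood at 145 ± 15.1, 73.6 ± 12.7 and 38.6 ± 6.54 CPM in the same order, and all 3 population differences passed in both genotypes. Tnip3, an A20-binding protein, fell in MPP3 by log2 -1.71 ± 0.40 in WT and -1.57 ± 0.40 in KO (edgeR adjusted p = 0.00854 and 0.0157). Tnip2, another A20-binding protein, and Tax1bp1, an adaptor of A20, fell in WT MPP4 by 0.68 and 0.34 on the log2 scale. The median over the brakes in this comparison was -0.31, beside -0.01 over all tested genes.

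Of 32 further targets 23 were tested, and in WT MPP4 against LT-HSC 4 rose and 3 fell, close to the 14.1% and 13.1% of all genes. Ccl9, a chemokine of the same family as Ccl3 and Ccl4, rose from 4.28 ± 0.990 to 140 ± 47.0 CPM (log2 5.02 ± 0.37, edgeR adjusted p = 6.8e-08) and had 130 ± 55.9 CPM in MPP3. Ccl5, the chemokine RANTES, rose from 0.477 ± 0.144 to 2.34 ± 1.09 CPM (log2 2.27 ± 0.62, edgeR adjusted p = 0.0119). Tnfaip2, a TNF-induced gene, fell by 2.91 on the log2 scale (edgeR adjusted p = 2.5e-06) and Csf1, a growth factor of macrophages, by 1.18 (edgeR adjusted p = 0.00577). In KO 2 targets rose (Ccl9 at log2 5.23 and Cd44) and 3 fell (Tnfaip2 at -3.01, Csf1 at -1.31 and Bcl2l1 at -1.57). Of all tested genes 9.57% rose there and 10.5% fell. The targets thus included both risers and fallers, and their median was 0.10 in WT and -0.22 in KO, beside -0.01 and 0.01 over all genes. The 22 immediate early genes were described the same way, and of 21 tested 1 rose (Btg2) and 3 fell (Egr1, Klf6 and Ppp1r15a) in WT MPP4 against LT-HSC.

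**Figure D4:**
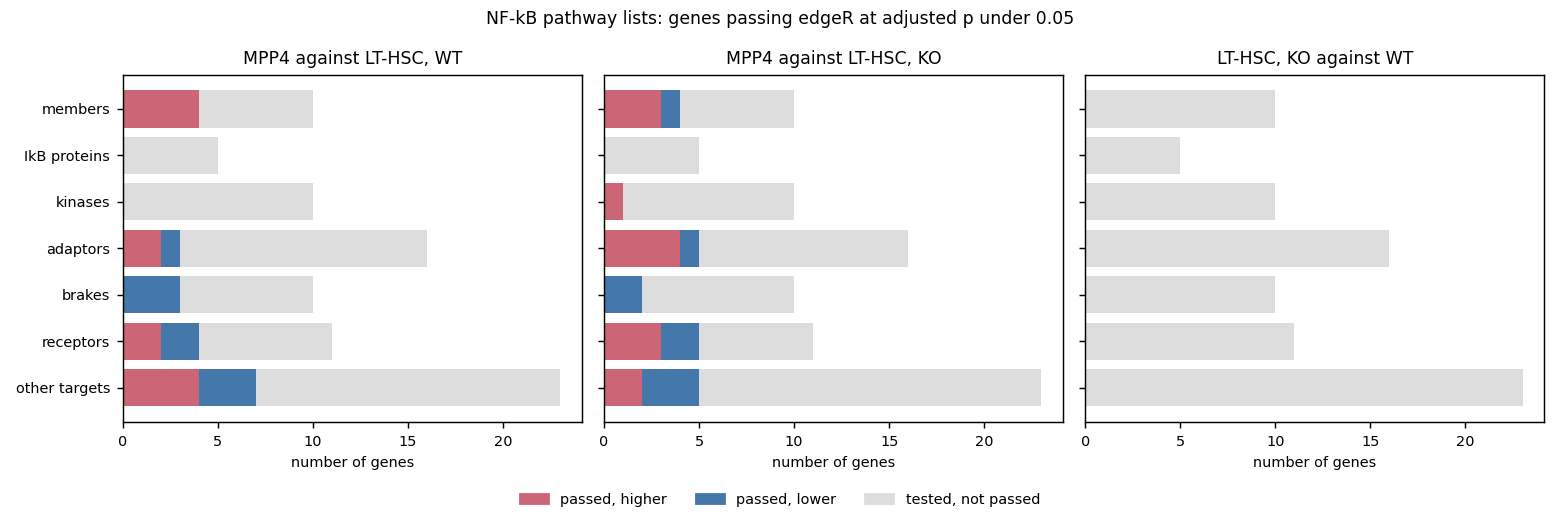
Number of genes (x axis) of each pathway list (y axis) that passed edgeR's test at an adjusted p under 0.05 as higher (red) or lower (blue), or were tested without passing (grey), for MPP4 against LT-HSC in WT and KO and for KO against WT in LT-HSC. Genes of 5 rows in WT and 6 rows in KO passed between populations, and none passed between genotypes.

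None of the genes on the pathway lists passed edgeR's test between KO and WT in any population, nor did any by limma voom, and DESeq2 called 1, the target Bcl2l1 in LT-HSC. In LT-HSC all 10 genes of the kinase list were below 0, with a median log2 difference of -0.28 beside 0.01 over all tested genes. Of these 4 had an unadjusted p under 0.05 by edgeR, as did 11.2% of all tested genes. Map3k14 stood at 10.3 ± 2.16 CPM without Helios and 15.9 ± 2.96 CPM with it (log2 -0.64 ± 0.24, edgeR adjusted p = 0.348), and Tbk1, a kinase of innate signalling, at 122 ± 1.85 and 147 ± 18.9 CPM (log2 -0.27 ± 0.11, edgeR adjusted p = 0.37). Of the 16 adaptors 13 were below 0 in LT-HSC, with a median of -0.21 and 2 at an unadjusted p under 0.05, Birc2 at -0.48 ± 0.20 and Malt1 at -0.30 ± 0.14 (edgeR adjusted p = 0.378 and 0.426). These 2 of 16 are near that share of all genes. In MPP3 8 of the 10 genes of the kinase list and in MPP4 6 of them were below 0, with medians of -0.12 and -0.04. By edgeR 3 and 0 had an unadjusted p under 0.05, beside 4.59% and 4.0% of all genes. Ikbke, the kinase IKK epsilon, was at 32.4 ± 1.89 CPM in MPP3 KO and 45.9 ± 0.968 CPM in MPP3 WT, which did not overlap (log2 -0.50 ± 0.16, edgeR adjusted p = 0.895). Of the 23 targets 5 had an unadjusted p under 0.05 in LT-HSC, beside 11.2% of all genes. Bcl2l1, a survival gene, averaged 87.1 ± 5.44 CPM without Helios and 59.6 ± 12.4 CPM with it (log2 0.55 ± 0.14, edgeR adjusted p = 0.216), and Cd44, an adhesion receptor, stood at -0.40 ± 0.12 (edgeR adjusted p = 0.258). Lists were chosen with earlier results of these data known, so their counts are a description.

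The members were also compared by how they varied over the 18 libraries, which share their populations, so that a high correlation over all of them partly restates the population differences. Ccl3 and Ccl4 had a Pearson r of 0.94 over all 18 libraries on the log2 CPM scale, and of 0.53, 0.71 and 0.76 within the 6 libraries of LT-HSC, MPP3 and MPP4. Rel and Ccl4 had 0.90 over all and 0.82, -0.18 and 0.91 within the populations. Rel and Nfkbia, at -0.67 over all, had -0.50, -0.29 and 0.35 within them, so the opposite course of these 2 genes did not appear in each population. Nfkb1 and Rela, flat between populations, had 0.63 over all and 0.52, 0.69 and 0.85 within.

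By r over the 18 libraries, the tested genes most like Ccl3 were Msrb3 (0.954), Sema3d (0.94) and Fam69b (0.939), and those most like Ccl4 were Ano10 (0.948), Slc43a2 (0.946) and Prps2 (0.943). Most like Rel were Trp53inp1 (0.932), Mctp2 (0.926) and Npc1 (0.908), of which Trp53inp1 kept 0.92, 0.93 and 0.73 within LT-HSC, MPP3 and MPP4. Other pairs were weaker within a population. Ccl3 with Msrb3 had 0.34 and Ccl4 with Prps2 -0.28 within MPP3, and Rel with Mctp2 had 0.44 within MPP4. The closest to Nfkbia was Fyn, at 0.898 over all and 0.80, 0.58 and 0.89 within the populations. For Relb the closest were Lat (0.843) and Zfp580 (0.842), with 0.98 and 0.97 within LT-HSC. The libraries of a population include both genotypes, which Relb separated in LT-HSC, so these values may partly restate that difference. Rela was closest to Chst12 (0.838) and to the immediate early genes Jun (0.798) and Fosb (0.796), which had 0.88, 0.75 and 0.98 for Jun within LT-HSC, MPP3 and MPP4.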

How the data were processed

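The authors deposited raw read counts per Ensembl gene for 18 libraries, per the file headers, and these were tested. Deposited too by the authors were a normalized signal (the count over 1 size factor per library, also per kb), the median transcript length, and log2 fold changes with p-values of KO against WT, per the file headers, by a model not given in the sources used here. The tool bcl2fastq 2.17.1.14, DESeq with no version and the build mm10 appear in the submitters' processing notes, and aligner, counting tool, annotation and strandedness were not given in the sources used here. Per the labels' protocols, cDNA was made with SMART-Seq v4 and libraries with Nextera XT, without molecular identifiers, so floors cover counting error only.

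Genes kept by filterByExpr (16325) were TMM-scaled and fitted to all 18 libraries, 1 mean per group, with edgeR 4.0.16 (R 4.3.3, quasi-likelihood, Benjamini-Hochberg over all tested genes at 0.05). Standard errors were derived from the fold change and its F statistic. DESeq2 1.42.0, limma 3.58.1 voom, other scaling, no filter, a replicate block, the compared libraries alone and each library left out were alternatives, and the fit was tested on simulated data. Likeness used log2 of CPM plus 0.5. Floors were 3 reads over a group.

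The design text names 3 mice per genotype for the 3 populations, so a number was taken as 1 mouse within a genotype. The correlation of deviations was 0.041 to 0.182 there, and 0.008 to 0.11 for the same number across genotypes. P-values of KO against WT measure the spread between mice. Between populations the main fit took the libraries as independent, and only the replicate block by mouse and limma voom used the pairing. Members, lists and named genes were chosen with earlier results of these data known. Of each pathway list up to 4 passing genes with the largest change were named, or else up to 2 with the smallest p; Cd44 and Birc3 in KO MPP4 against LT-HSC, and Tab2 and Tab3, were named beyond that rule after their values were seen, and 1 adaptor is not reported here. The marker lists were neutrophil, macrophage and dendritic cell, mast cell and basophil, B and plasma cell, T and NK cell, and stroma and endothelium.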

Additional observations from a re-analysis of the deposited data

How the results depend on the processing

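Of the calls described, Ccl3 in MPP3 against LT-HSC in WT, Ccl3 and Ccl4 in MPP4 against LT-HSC in both genotypes, and Rel and Nfkbia in that comparison in KO passed under every alternative run. For KO against WT in LT-HSC DESeq2 gave 1 member against 0. For MPP3 against LT-HSC in WT (3 members), the compared libraries alone gave 1, leaving out 1 library gave 1 to 4, and leaving out the libraries with plasma cell transcripts gave 1. For MPP4 against LT-HSC in WT (4) the replicate block by mouse gave 7. For MPP4 against MPP3 in WT (1) the replicate block, DESeq2, limma and the compared libraries alone each gave 2, leaving out 1 library gave 0 to 1, and leaving out the plasma cell libraries gave 0. For MPP3 against LT-HSC in KO (1) the replicate block and DESeq2 gave 2, leaving out 1 library 0 to 1 and the plasma cell libraries 0. For MPP4 against MPP3 in KO (1) limma gave 2, the compared libraries alone 0, leaving out 1 library 0 to 1 and the plasma cell libraries 0. The cause was not tested. Over all single members and alternatives, 29 calls were lost, 27 were gained and 0 reversed. In KO against WT, libraries of the same number come from different mice (correlations 0.008 to 0.097). The replicate block gave 0 members in each population. Library 1 had the fewest genes with a read and the highest immediate early sum in each of the 6 groups. Genes with a read numbered 17362 to 18896 in these libraries and 19185 to 20272 in the others. The part of this in the results was not tested. Leaving out the libraries with neutrophil or plasma cell transcripts was chosen after seeing the data. Reads were few in LT-HSC, with 0 over the WT group and 43 over the KO group for Tnf, 121 and 245 for Ccl3 and 217 and 189 for Ccl4. Depth limits these 3 there.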
